A study of Drosophila melanogaster with 7 samples.

Results

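Melanization is the insect immune reaction in which phenoloxidases oxidise phenols to the black pigment melanin. The 8 genes asked for here encode its parts in the fly trachea: serpins that inhibit the reaction, clip-domain serine proteases that switch it on, and the prophenoloxidases that carry it out. Each listed symbol was matched exactly to the gene names of 7 deposited gene tables. 7 of the 8 were found, among 17697 named rows. No row is named Spn28D. RefSeq gives Spn28D as a synonym of Spn28Dc, which is described beside the members and not counted among them.

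The tables come from the airways (tracheae) of Drosophila melanogaster, dissected at the third larval instar. 4 libraries are controls reared at 18 °C, which the titles call wild type. 3 are Hop.CA libraries (HopCA in the plots), in which Hop.CA, a form of the JAK kinase Hopscotch, used to raise JAK/STAT signalling, was ectopically expressed. The animals were moved from 18 °C to 29 °C at the second larval stage, 18 hours before sampling. All 7 libraries carry one strain label, which lists btl-Gal4, UAS-GFP, UAS-Hop.CA and tub-Gal80ts, for controls too. btl-Gal4 drives expression in the trachea, and Gal80ts blocks Gal4 at the lower temperature. Transgene expression and temperature changed together, so their effects cannot be told apart. The libraries are numbered as biological replicates. How many animals each pool held is not stated.

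In flies the cascade runs through extracellular proteases that cleave one another and, at its end, cleave prophenoloxidase to the active enzyme. Serpins trap these proteases in a covalent complex. Spn77Ba is the serpin that holds this reaction in check in the trachea: its loss is known to blacken the airways through the proteases MP1 and Sp7 (also called MP2) and to switch on the antifungal peptide gene Drs through the Toll pathway. Larval PPO1 and PPO2 are made by crystal cells, a type of blood cell, rather than by the tracheal epithelium.

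Total gene reads per library ranged from 16795748 to 20455268. hop, the transgene's own gene, rose from 41.5 ± 2.64 (SD, n = 4) to 1460 ± 126 (SD, n = 3) CPM, read counts scaled to an equal library total by TMM. The tracheal markers were present. Of 7 matched ones, the chitin deacetylase genes verm and serp were highest, at 5844 and 3208 CPM in control. 3 of the 7 (verm, serp and trh) were higher in Hop.CA and 1, btl, was lower, with a summed level of 9934 to 10611 CPM in control and 15065 to 15909 in Hop.CA. Markers of other tissues were present as well. The call of trh was lost without control replicate 3 (0.0558) or 4 (0.0694) or Hop.CA replicate 1 (0.0977), 2 (0.0846) or 3 (0.108), with library size only (0.0576) and on RPKM (0.0710), and that of btl without Hop.CA replicate 1 (0.0512). Of the 3 lamellocyte markers 1, atilla, fell (178 to 101 CPM, log2 -0.82, edgeR adjusted p = 0.000998), and their sum was 170.5 to 199.7 CPM in control and 110.3 to 122 in Hop.CA. Summed fat body markers were at 1800 to 6500.2 CPM in control and 2289 to 4450.2 in Hop.CA, and none of the 7 passed the test. Summed muscle markers were at 6708 to 14805 and 2409 to 7589 CPM, with 4 of 8 lower. Summed imaginal disc markers were at 201 to 343 and 199 to 213 CPM, with 4 of 7 lower. Most of this sum was sd, which was not called, at 145 of a mean of 267 CPM in control and 157 of 207 in Hop.CA. The 4 were vg, nub, ap and Antp (log2 -1.54, -1.64, -1.53 and -1.14), with 9.78% of nub reads unique. Dll and eyg (log2 -1.16 and -1.11) did not pass. None of these markers was at 0 in all libraries. Their part in the results was not tested. In such bulk samples, fewer cells of a type and less RNA per cell cannot be told apart.

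All 7 members passed the filter on low counts, and 5 of them were called. Spn77Ba and Spn88Ea were higher, and Spn27A, MP1 and Sp7 lower in Hop.CA. MP1 was not called in its uniquely assigned reads. No change reached 2-fold. PPO1 and PPO2 did not pass. The quasi-likelihood test of edgeR was used, with p-values adjusted by Benjamini-Hochberg over 9457 genes and called at an adjusted p under 0.05. It called 31.5% of all tested genes, 16.4% higher and 15.1% lower. In the same 5 members the Hop.CA libraries lay all above or all below every control, which held for 43.3% of all tested genes. The median log2 fold change was -0.28 over the 7 members and -0.0062 over all tested genes. Other call rules gave 3 members and 20.2% of genes with no filter on low counts, 5 members and 35.3% by DESeq2, 3 of 6 and 31.7% with uniquely assigned reads, none of 6 and 14.1% with reads across a splice junction, and 1 and 13.9% at an adjusted p under 0.01. Without control replicate 1, 2, 3 or 4 in turn 4, 3, 2 and 3 members were called, beside 36.4%, 29.2%, 23.2% and 26.5% of genes. Without Hop.CA replicate 1, 2 or 3 it was 1, 2 and 1 member, beside 19.0%, 23.1% and 17.4% of genes, and without control replicate 2 and Hop.CA replicate 1 together 1 member beside 16.4%.

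**Figure D1:**
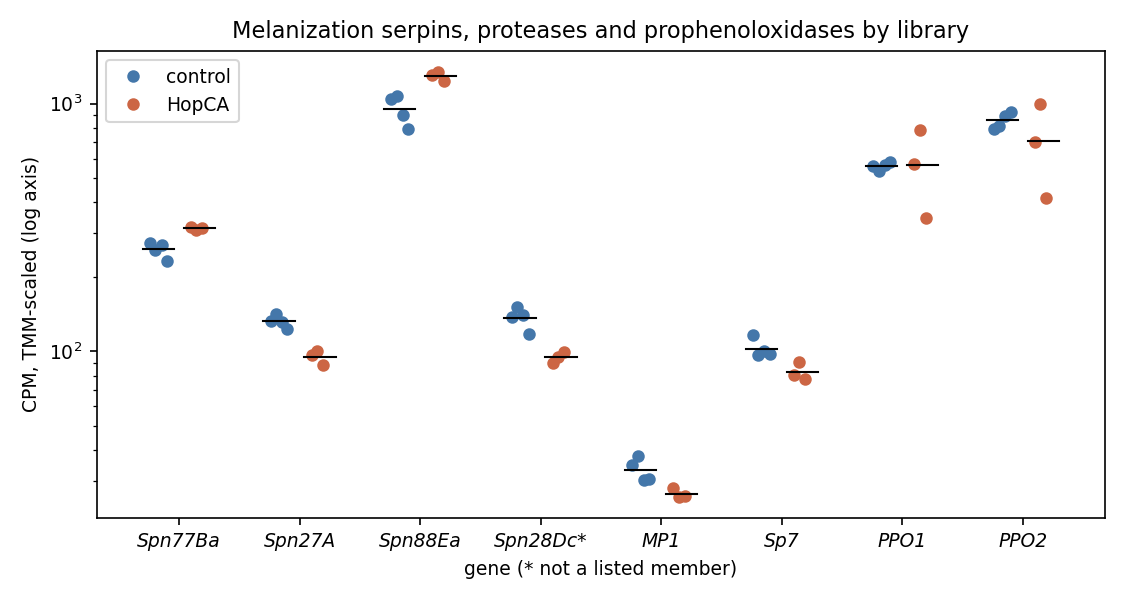
Level of each gene in every library, as TMM-scaled CPM on a log axis; points are libraries (4 control, 3 HopCA) and black bars are group means. Spn77Ba and Spn88Ea sit higher in all HopCA libraries, Spn27A, Spn28Dc, MP1 and Sp7 lower, and both PPO genes are spread widely in HopCA (346 to 781 CPM for PPO1).

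The serpins are taken first. Spn77Ba (FBgn0262057; dm6 3L, 20317190 to 20320116, plus strand, 8 exons) had 274, 256, 269 and 232 CPM in the 4 controls, given as replicates 1 to 4 here and throughout. Its 3 Hop.CA libraries had 317, 309.9 and 316 CPM. All Hop.CA libraries lay above all controls, and they were close to one another. The means were 258 ± 18.8 (SD, n = 4) and 314 ± 3.67 CPM (SD, n = 3), a 1.22-fold rise (log2 0.28 ± 0.0797 SE, 95% interval 0.10 to 0.47, edgeR adjusted p = 0.0299). The call was kept without control replicate 1 (adjusted p = 0.0187) and lost without control replicate 2 (0.0531), 3 (0.0658) or 4 (0.0590) or Hop.CA replicate 1 (0.0994), 2 (0.0761) or 3 (0.102). The fold change stayed between log2 0.23 and 0.30 in those fits. With exon-exon reads the adjusted p was 0.234. At least 99.9% of its reads are unique to it. 4.35% of its exon bases lie under the antisense noncoding gene CR43875, which had 23 to 39 reads per library.

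Spn88Ea (FBgn0028984; 3R, 15203069 to 15206447, minus strand, 4 exons), also called Spn5 and known as a brake on Toll signalling, was the most expressed member. It stood at 1043, 1072, 900.2 and 793 CPM in the controls and at 1298, 1340.3 and 1238 CPM in Hop.CA. The groups did not overlap, and control replicates 3 and 4 were the lowest libraries. It rose from 952 ± 129.8 to 1292 ± 51.5 CPM, or 1.36-fold (log2 0.44 ± 0.116 SE, 95% interval 0.17 to 0.71, edgeR adjusted p = 0.0236). The call was lost without control replicate 3 (adjusted p = 0.0709) or without Hop.CA replicate 1 (0.0770), 2 (0.0762) or 3 (0.0627), and with exon-exon reads (0.0647). Every read counted for it was uniquely assigned.

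Spn27A (FBgn0028990; 2L, 6671065 to 6673347, minus strand) is the serpin known to restrain the protease that activates phenoloxidase in the hemolymph. It moved the other way. The controls had 133, 141, 132 and 123 CPM, and the Hop.CA libraries 97.01, 100.4 and 88.4 CPM. The highest Hop.CA library was well under the lowest control. It fell from 132 ± 7.53 to 95.3 ± 6.18 CPM, to 0.72 of the control level (log2 -0.47 ± 0.0788 SE, 95% interval -0.66 to -0.29, edgeR adjusted p = 0.00431). This was the lowest adjusted p among the members, and the call held without each library in turn (adjusted p 0.00501 to 0.0266).

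None of the Spn27A reads is uniquely assigned. The gene lies inside cup and CG34310, which run on the opposite strand and share none of its exon bases. It has 2283 exon bases over a gene length of 2283, so it has no spliced read by which its reads could be told apart. The partners were far lower. cup was at 1.005 CPM in control and 1.53 in Hop.CA, and CG34310 at 29.8 and 35.4 CPM. Which other gene or place the reads of Spn27A were also assigned to was not tested.

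Spn28Dc (FBgn0031973; 2L, 8004548 to 8007210, minus strand, 2 exons), the serpin known under the name Spn28D as a regulator of hemolymph phenoloxidase activity, was at 138, 151, 140.4 and 118 CPM in control and at 89.5, 94.8 and 99.4 CPM in Hop.CA. The groups did not overlap. It fell from 137 ± 13.9 to 94.6 ± 4.95 CPM (log2 -0.53 ± 0.0965 SE, 95% interval -0.76 to -0.31, edgeR adjusted p = 0.00603), a call kept without each library in turn (adjusted p 0.00435 to 0.0325). All of its reads are unique. It is not a member by the rule, and is named because its RefSeq synonym is the one asked for.

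The 2 proteases had lower counts in Hop.CA, but their evidence is not equal. Sp7 (FBgn0037515; 3R, 7759786 to 7763947, plus strand, 8 exons), a clip-domain protease that activates prophenoloxidase, was at 116, 96.4, 100.3 and 97.4 CPM in control and at 80.03, 90.97 and 77.5 CPM in Hop.CA. The nearest pair of libraries, control replicate 2 and Hop.CA replicate 2, lay close together without overlapping. Sp7 fell from 103 ± 9.35 to 82.8 ± 7.17 CPM (log2 -0.31 ± 0.0963 SE, 95% interval -0.53 to -0.087, edgeR adjusted p = 0.0426). All its reads are unique, and at least 17.3% of them span a splice junction. The call was lost without control replicate 3 (adjusted p = 0.0715) or 4 (0.0569) or Hop.CA replicate 1 (0.140) or 3 (0.159), with no filter on low counts (0.0550), and with exon-exon reads (0.0512).

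MP1 (FBgn0027930; 3R, 4307908 to 4309835, plus strand, 6 exons), the melanization protease that acts with Sp7, had the lowest level of the members by all reads. Its libraries stood at 34.8, 37.9, 30.3 and 30.6 CPM in control and at 28.03, 25.98 and 26.2 CPM in Hop.CA. By all reads it fell from 33.4 ± 3.61 to 26.7 ± 1.12 CPM (log2 -0.32 ± 0.0968 SE, 95% interval -0.54 to -0.097, edgeR adjusted p = 0.0386). The call was lost without control replicate 1 (0.0563) or 2 (0.0646) or Hop.CA replicate 1 (0.0788), 2 (0.115) or 3 (0.129), with no filter on low counts (0.0523), and in limma on RPKM (0.0502).

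The fall of MP1 was not called in the few reads that belong to MP1 alone. 100% of its exon bases lie within exons of Vps24, a gene of the endosomal sorting machinery on the opposite strand. 7.65% to 12.9% of the reads counted for MP1 were unique to it, and nearly all of those span a splice junction. By exon-exon reads MP1 had 66, 92, 39 and 64 reads in control, and 60, 64 and 56 in Hop.CA. These overlap, with control replicate 3 the lowest of all and control replicate 2 the highest. The fit on uniquely assigned reads gave log2 -0.11 with an edgeR adjusted p of 0.764. The fit on exon-exon reads, chosen after seeing the data, gave log2 -0.15 with an edgeR adjusted p of 0.713. Both fits rest on at most 92 MP1 reads per library and cannot decide whether MP1 fell.

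Vps24 itself fell from 67.1 ± 0.597 to 34.3 ± 2.78 CPM (log2 -0.97 ± 0.0760 SE, edgeR adjusted p = 0.000317), and its exon-exon reads did not overlap between the groups either, with 103 to 126 in the controls and 42 to 74 in the Hop.CA libraries. By total reads MP1 and the gene that covers it were thus both lower in Hop.CA. Their order within Hop.CA differed. Replicate 1 was the highest of these libraries for MP1 (28.03 CPM) and the lowest for Vps24 (31.1 CPM). How much of the MP1 difference comes from Vps24 was not tested.

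**Figure D2:**
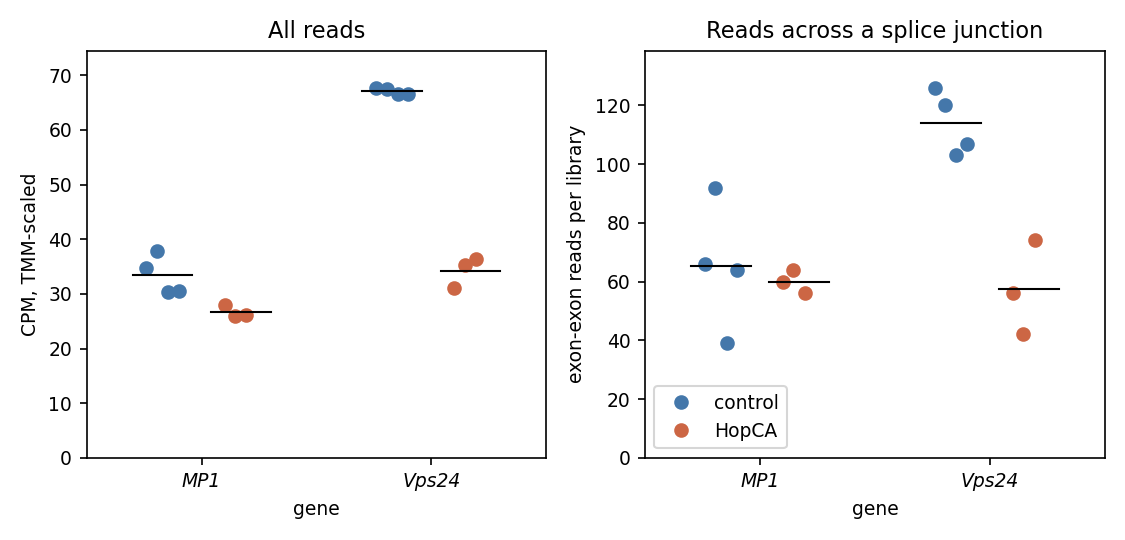
MP1 and Vps24, which overlap on opposite strands, by all reads (left, TMM-scaled CPM) and by unscaled reads across a splice junction (right); points are libraries and bars are means. Vps24 is lower in HopCA on both scales, while MP1's groups part by all reads and overlap by junction reads (39 to 92 in control, 56 to 64 in HopCA).

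The prophenoloxidases showed no called difference, and the Hop.CA libraries disagreed with one another. PPO1 (FBgn0283437; 2R, 17887220 to 17889973, minus strand, 6 exons), the enzyme that crystal cells release, was at 559, 536, 565 and 582 CPM in control and at 571, 781 and 346 CPM in Hop.CA. The controls lay within a narrow band, and Hop.CA replicate 2 was above it and replicate 3 below it. The means were 561 ± 18.8 and 566 ± 217 CPM (log2 0.013 ± 0.237 SE, 95% interval -0.54 to 0.57, edgeR adjusted p = 0.974). The coefficient of variation was 3.36% in control and 38.4% in Hop.CA. Without Hop.CA replicate 2 the log2 fold change was -0.29, and without replicate 3 it was 0.27, with neither called (adjusted p = 0.309 and 0.207).

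PPO2 (FBgn0033367; 2R, 9042261 to 9044709, minus strand, 4 exons), the enzyme stored in the crystals that give these cells their name, had the same order of Hop.CA libraries. It was at 791, 815, 892 and 929 CPM in control and at 702, 994 and 417 CPM in Hop.CA. The means were 857 ± 64.4 and 704 ± 289 CPM (log2 -0.28 ± 0.258 SE, 95% interval -0.88 to 0.32, edgeR adjusted p = 0.433). Without Hop.CA replicate 2 the value was log2 -0.61 (adjusted p = 0.0740), and without replicate 3 it was -0.011 (0.968). The interval of PPO1 holds changes as large as those of the 3 member serpins in either direction, and that of PPO2 holds a fall larger than any member's.

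Markers of blood cells and of other tissues varied across the Hop.CA libraries too, and 7 of 8 plasmatocyte markers had the order of the PPO genes. So did 4 of 7 recognition genes, 4 of 14 melanin and dopamine enzymes, 4 of 25 other serpins and 0 of 14 other proteases. These counts include rows too low to be tested, 9 of the serpins, 5 of the proteases and 1 enzyme gene. That enzyme gene, y, is among the 4 with this order, on at most 2 reads in any library. Of the proteases 2 and of the serpins 3 had no reads at all and could not show the order, so the lists cannot be compared by these counts. The share of all genes with this order was not counted. Hml, a plasmatocyte gene, was at 234, 329 and 185 CPM in Hop.CA replicates 1, 2 and 3, the peroxidasin gene Pxn at 173, 231 and 130.4 CPM, and Col4a1, which encodes a collagen that blood cells and fat body make, at 202, 310 (309.7) and 177 CPM. lz, the transcription factor gene of crystal cells, was at 2.33, 2.99 and 1.77 CPM. Each was highest in replicate 2 and lowest in replicate 3. eater, the remaining plasmatocyte marker, was at 37.98, 33.2 and 26.5 CPM. peb, listed with lz, went the other way, at 53.95, 49.03 and 56.7 CPM, and PPO3, a phenoloxidase of lamellocytes, at 4.81, 4.16 and 5.66 CPM, likewise. The sum of 8 plasmatocyte markers was 817, 1085 and 682 CPM in Hop.CA replicates 1 to 3 and 713 to 894 CPM in control, and none of the 8 passed the test. None of the 4 crystal cell markers (lz, peb and both PPO genes) passed either. The sum of lz and peb was 30.5 to 55.7 CPM in control and 52.02 to 58.4 CPM in Hop.CA. Nearly all of this sum was peb, with means of 39.8 and 53.2 CPM beside 1.86 and 2.36 for lz. Hop.CA replicate 2 was also the highest for the summed fat body markers (2289, 4450.2 and 2446 CPM in replicates 1 to 3) and muscle markers (2409, 7589 and 3331 CPM), where replicate 1 was the lowest. The part of blood cell or other tissue content in the PPO values was not tested.

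The ratio of the 2 enzymes separated the groups where their levels did not. It was chosen after its values were seen and is given without a test. RPKM, the authors' read count scaled by exon length and library total, allows levels of different genes to be compared. The ratio of PPO1 to PPO2 in RPKM was 0.688, 0.641, 0.618 and 0.611 in control, and 0.792, 0.765 and 0.809 in Hop.CA. The groups did not overlap, although the level of PPO2 itself ranged from 184 to 417 RPKM over the Hop.CA libraries. 8.63% to 9.84% of PPO1 reads are unique. The gene lies within Elk on the opposite strand, with no exon base shared, and Elk had 7.24 CPM in control and 5.41 in Hop.CA. By exon-exon reads the ratio was 1.31, 1.09, 1.003 and 1.14 in control and 1.36, 1.34 and 1.25 in Hop.CA. On that scale control replicate 1 fell among the Hop.CA libraries.

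**Figure D3:**
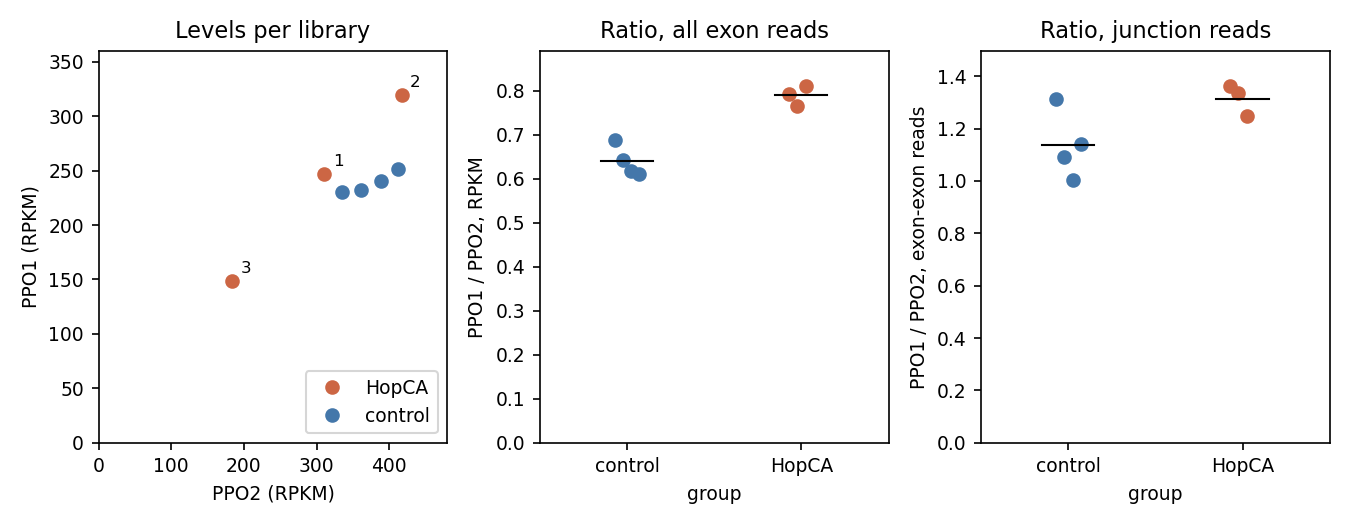
PPO1 against PPO2 in RPKM for each library (left, HopCA libraries numbered), and their ratio per library from RPKM (middle) and from exon-exon reads (right), with group means as bars. HopCA replicates 1 to 3 lie along a line from 184 to 417 RPKM of PPO2; the RPKM ratio separates the groups, and the junction-read ratio of control replicate 1 falls within the HopCA range.

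Per exon length, the order of the 7 members was the same in both groups. In control the mean RPKM was 619 for Spn88Ea, 375 for PPO2, 239 for PPO1, 118 for Spn77Ba, 57.8 for Spn27A, 42.97 for Sp7 and 21.8 for MP1. In Hop.CA it was 835, 304, 238, 143.5, 41.3, 34.5 and 17.4 RPKM in the same order. Spn88Ea thus stood above 98.2% of tested genes in control and MP1 above 71.6%. Not all of these levels rest on unique reads. Of the reads counted, 7.65% to 12.9% were unique for MP1, 8.63% to 9.84% for PPO1 and none for Spn27A. All exon bases of MP1 lie within exons of Vps24. The levels and ranks of MP1, PPO1 and Spn27A are therefore uncertain. No 2 neighbours in the order overlapped in their library ranges, except PPO2 (184 to 417 RPKM) and PPO1 (149 to 319 RPKM) in Hop.CA.

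Every Hop.CA library was above all controls for Spn77Ba and below them for Sp7, so the ratio of these genes had to separate the groups. As a description, chosen after the values were seen, the RPKM of Spn77Ba was 2.58, 2.90, 2.94 and 2.60 times that of Sp7 in control, and 4.33, 3.73 and 4.48 times in Hop.CA. The mean was 2.76 ± 0.189 in control and 4.18 ± 0.395 in Hop.CA. The ratio adds no evidence to the 2 calls. With 1 library left out, these were lost in 6 of 7 fits for Spn77Ba and 4 of 7 for Sp7. Both genes are counted almost wholly from unique reads. These are transcript levels. Serpin and protease protein were not measured.

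**Figure D4:**
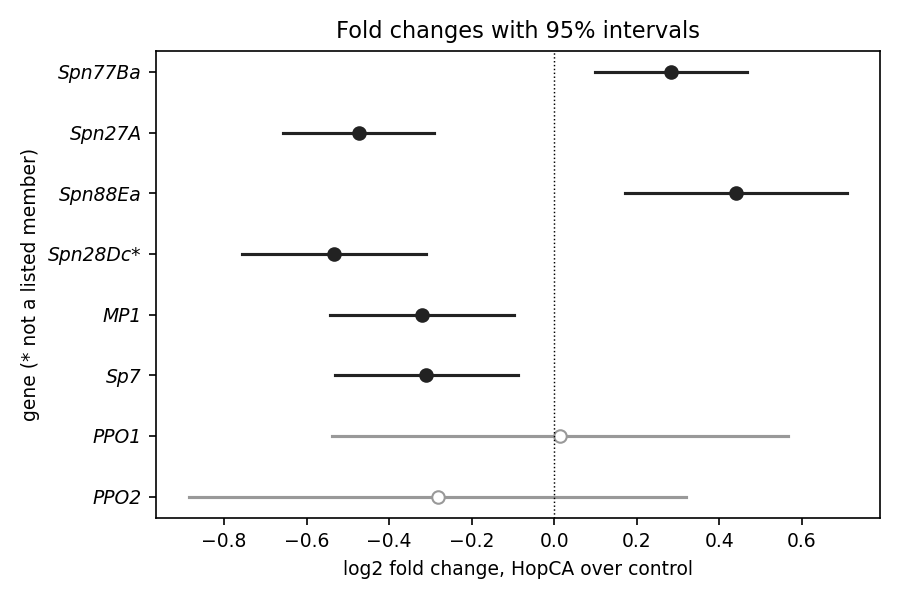
log2 fold change of HopCA over control with 95% intervals from edgeR's quasi-likelihood fit; filled points passed an adjusted p of 0.05 and open points did not. Spn77Ba (0.28) and Spn88Ea (0.44) lie above 0, the other 2 serpins and both proteases below, and the intervals of PPO1 and PPO2 span 0.

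Among the other proteases of the Toll and melanization cascades, of 14 listed 9 were tested, 1 rose and 1 fell, with a median log2 fold change of 0.0045. Beside this list and those that follow, 16.4% of all tested genes were higher and 15.1% lower. Hayan, which activates prophenoloxidase after wounding, fell from 54.7 ± 13.1 to 34.8 ± 1.51 CPM (log2 -0.65 ± 0.179 SE, edgeR adjusted p = 0.0278). grass, which relays microbial recognition to Toll, rose from 77.3 ± 3.28 to 96.5 ± 5.50 CPM (log2 0.32 ± 0.0714, edgeR adjusted p = 0.0130). Hayan lost its call without control replicate 2 (0.0534) or Hop.CA replicate 1 (0.0765), 2 (0.0727) or 3 (0.0993), and grass without Hop.CA replicate 1 (0.0637). The other 7 tested, among them psh, SPE and modSP, did not pass, and ndl, spheroide, sphinx1, sphinx2 and Ser7 had at most 7 reads in any library.

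The other serpins moved both ways. Of 25 listed, 16 were tested, 4 rose and 4 fell, Spn28Dc included, with a median of log2 0.024. Spn77Bc, a neighbour of Spn77Ba in the same cluster on 3L, rose from 5.35 ± 1.59 to 15.8 ± 1.90 CPM (log2 1.56 ± 0.245 SE, edgeR adjusted p = 0.00353), a call kept without each library in turn. Spn77Bb, which lies between them, had 2.37 ± 0.921 CPM in control and 3.25 ± 0.253 in Hop.CA (edgeR adjusted p = 0.309, not called). Reads of Spn77Bb and Spn77Bc are partly shared, with 59.3% and 65.3% unique, so the levels of both are uncertain. In the fit on unique reads Spn77Bc was also called, at log2 1.58 (edgeR adjusted p = 0.00560). Spn47C fell by 0.74 on the log2 scale, Spn43Ab fell by 0.65, and Spn42Dc rose by 0.57. Spn47C lost its call without Hop.CA replicate 3 (0.0503), Spn42Dc without Hop.CA replicate 1 (0.0620) or 2 (0.0852), and Spn43Ab without control replicate 1 (0.0739), 3 (0.0742) or 4 (0.0547) or Hop.CA replicate 1 (0.124) or 3 (0.124), as well as with unique reads (0.125).

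Enzymes that make or use the phenolic substrates were mixed. Of 14 genes of melanin and dopamine metabolism, 13 were tested, 2 rose and 3 fell, with a median of log2 0.12. Pu, whose GTP cyclohydrolase makes the cofactor of tyrosine hydroxylase, rose from 33.2 ± 3.64 to 62.2 ± 4.34 CPM (log2 0.90 ± 0.101 SE, edgeR adjusted p = 0.000998), and Ddc, dopa decarboxylase, rose by log2 0.43 ± 0.127. yellow-f, whose product converts dopachrome, fell from 7.76 to 3.78 CPM (log2 -1.04 ± 0.178), and Dat, an arylalkylamine acetyltransferase gene, fell by 0.72 on the log2 scale. laccase2, the phenoloxidase of cuticle tanning, was the remaining called gene. It is named after its values were seen, and fell from 534 ± 47.5 to 407 ± 32.99 CPM (log2 -0.39 ± 0.0999, edgeR adjusted p = 0.0212).

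Pu and yellow-f kept their calls without each library in turn. Ddc lost it without control replicate 1 (0.0541), 3 (0.0823) or 4 (0.0765) or Hop.CA replicate 1 (0.0998) or 2 (0.116). Dat lost it without control replicate 1 (0.0745), 2 (0.0558), 3 (0.0749) or 4 (0.0846) or Hop.CA replicate 1 (0.0724). laccase2 lost it without control replicate 3 (0.0523) or Hop.CA replicate 1 (0.0891) or 3 (0.0672).

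Upstream and downstream of the cascade, the Toll core had 5 of 9 genes higher and none lower, with a median of log2 0.35. Of all tested genes 16.4% were higher and 15.1% lower. The list, which includes the Toll target Drs, was chosen with earlier results of these data known. Drs was at 539, 810 (810.1), 217 and 348 CPM in control and at 4132, 2257 and 3122 CPM in Hop.CA. Dif, the NF-kappaB factor, was at 85.6, 72.0, 83.1 and 86.0 CPM and at 175, 178.1 and 178.5 CPM. pll and cact rose by log2 0.64 and 0.41, and Tl by log2 0.35. pll did not pass with unique reads (0.106), and Tl did not without Hop.CA replicate 1 (0.0553) or 3 (0.0808). spz, whose product the cascade's proteases cleave to the Toll ligand, did not pass, with 53.6 ± 8.91 CPM in control and 56.1 ± 7.20 in Hop.CA (edgeR adjusted p = 0.764). Of 7 recognition genes 2 rose (PGRP-LE and PGRP-LC, log2 0.37 and 0.36) and 2 fell (PGRP-SA and GNBP2, log2 -2.52 and -1.42).

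**Figure D5:**
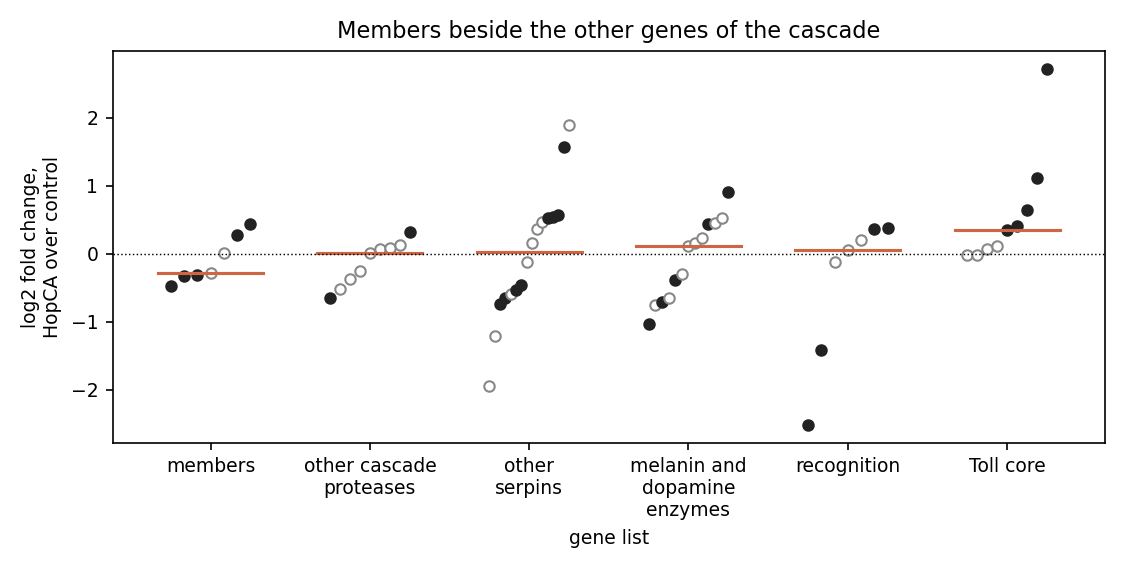
log2 fold changes of the 7 members and of the tested genes of 5 lists around them (points sorted within each list; filled points passed an adjusted p of 0.05; coloured bars are medians). Medians of the protease, serpin, enzyme and recognition lists lie between 0 and 0.12, the members' at -0.28 and that of the Toll core at 0.35.

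Genes beside the members mostly did not pass. Of the 14 gene rows directly next to the 7 members on their chromosomes, 9 were tested, none rose and 2 fell by edgeR. These were Vps24, described above, and CG42542 (log2 -0.60 ± 0.0915 SE, edgeR adjusted p = 0.00305), which shares 6 exon bases with Spn88Ea and went the opposite way to it. CR43875, Spn77Bb, Galt, cort, Spn88Eb, Ance-4 and CG13743 did not pass. CR46140, CG10919, CG11286, CG30110 and CG14492 had at most 3 reads in any library.

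The genes whose profile over the 7 libraries was most like each called member were found among 8371 genes (those whose log2 CPM averaged 1 or more). Likeness was the root mean square difference of centred log2 CPM. For Spn77Ba they were Rheb (0.032), CG2614 (0.037) and CG5276 (0.038), and for Spn88Ea CG6488 (0.045), CG3534 (0.051) and MFS18 (0.065). For Spn27A they were Hen1 (0.037), CG10341 (0.042) and Usp12-46 (0.054). For Sp7 they were CG11920 (0.035), MagR (0.038) and Tsp42Ee (0.042), and for MP1 Tre1 (0.029), CG4658 (0.045) and CG4452 (0.046). No member was among the nearest genes of another. All profiles come from the same 7 libraries.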

How the data were processed

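Each library has 1 deposited gene table, with whole read counts per gene (total, unique, exon, exon-exon and intron reads) and RPKM per the file headers. The deposited RPKM equals exon reads scaled by exon length and 1 total for the library. Reads were trimmed with cutadapt 1.8.1 and mapped to dm6, both per the submitters' processing notes. The kit was stranded, per the labels' protocols, but for the aligner, the counting program and its use of strand the sources used here give nothing. MP1, Spn27A and PPO1 lie within genes on the opposite strand, and reads from both strands of a shared stretch can be told apart only by strand or splice junction.

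1 unnamed row without reads was left out. 16795748 to 20455268 reads per library fell in genes, 9.07% to 10.7% of them not unique, and depth limits low genes most. Spread between replicates may in part be technical, since the pools are not described.

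Total gene reads were fitted with edgeR 4.0.16 (R 4.3.3): filterByExpr (minimum count 10, total 15), TMM, group as the only term, robust quasi-likelihood, Benjamini-Hochberg adjustment. SE was taken from the fold change and the F statistic. The script was tested on simulated data. Alternatives were other scalings and filters, DESeq2 1.42.0, limma 3.58.1 (voom, and trend on log2(RPKM + 0.1)), unique, exon and exon-exon reads, a replicate block, leaving out the 20 most abundant genes, a threshold of 0.01 and libraries left out. Figures used matplotlib 3.10.9.

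Members and lists were chosen with earlier results of these data known. Named genes are the members, hop, Drs, spz, Dif, the rows next to each member, up to 4 called genes of largest change per list whose log2 CPM averaged 0 or more (the 2 most expressed where none was called), and the 3 genes most like each called member. The muscle, fat body and lamellocyte lists are given as sums or single genes, without all the genes this rule picks. Tl, laccase2, Pxn, lz, PPO3, Vps24's exon-exon reads and other genes outside it were named after their values were seen. 1 tracheal marker, dys, was not matched. Planned promoter motif and protein descriptions were not made, as no sequence tables were used here.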

Additional observations from a re-analysis of the deposited data

Results flagged for a closer look

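Among 70 sets of 4 control values examined, 2 had a library that stood apart by Dixon's 95% criterion, where chance flags about 1 set in 20. grass was at 72.4 CPM in control replicate 4 and at 78.3 to 79.5 CPM in the other controls. ap, an imaginal disc marker, was at 35.6 CPM in control replicate 4 and at 15.3 to 17.3 CPM in the others. No member's control values stood apart in this way.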

How the results depend on the processing

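Of 7 members 5 were called, of 9457 genes 2978 and of 54 other cascade genes 24. Leaving out 1 library gave 1 to 4 members, 1676 to 3407 genes and 14 to 24 cascade genes. Members numbered 3 with no filter on low counts and 3 with unique reads. With the replicate number as a block 938 genes, 1 member (Spn27A) and 9 cascade genes were called. Same-numbered libraries correlated at -0.19, -0.46 and -0.066, on log2 CPM centred within each group. So few values cannot decide whether the numbers pair the samples. Of all pairs across the groups, control replicate 2 and Hop.CA replicate 1 correlated highest, at 0.47. What these 2 libraries share was not tested. Without control replicate 2 and Hop.CA replicate 1 together the counts were 1573, 1 and 12, at an adjusted p of 0.01 they were 1312, 1 and 12, and with exon-exon reads, a choice made after seeing the data, 863, 0 and 8. By edgeR 2 members had an unadjusted p under 0.05 in that last fit, and DESeq2 on total reads called 5. Under the other alternatives the counts stayed within 1.5 times. Fold changes of the 5 called members kept their sign in every fit that held them, and Spn27A kept its call in all 19. Spn27A has no unique or exon-exon read, so those 2 fits could not include it. PPO1, never called, turned negative with library size only (-0.0045), limma-voom (-0.063), unique reads (-0.030), RPKM (-0.071), the replicate block (-0.044), exon-exon reads (-0.066), and control replicate 2 and Hop.CA replicate 1 left out (-0.013), and ranged from -0.29 to 0.27 with 1 library left out, at -0.0091 without control replicate 2. The cause was not tested. The order of member levels was the same with scaled exon reads for all 7 members. Spn77Ba, Spn88Ea, MP1 and Sp7 had adjusted p between 0.0236 and 0.0426, and each lost the call in at least 4 of the 7 fits that left out 1 library.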
